A study of Mus musculus with 7 samples.

Results

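Marker genes of endocrine progenitors and of pluripotent cells were followed in mouse pancreatic islets, the small endocrine organs within the pancreas, after deletion of FoxO transcription factors in beta cells. The markers were Neurog3, Sox9, Hes1, Pou5f1, Nanog, Mycl, Fev, Vim, Cd24a and Gpx2. A gene was taken where a probe set of the array carried its symbol and no other, and the probe set with the highest mean stood for the gene. Of the 10 markers, 8 were found in this way among 14807 genes, each with 1 probe set. No probe set was named for Fev alone, and that of Cd24a also carried a second symbol, Gm6212, so neither is analysed here.

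RNA was compared between 3 samples of islets with a beta cell-specific triple knockout of FoxO1, FoxO3 and FoxO4 (b-FoxO triple KO, knockouts 5, 6 and 7) and 4 samples from littermate controls (WT, controls 1 to 4). All animals were of a mixed 129 x FVBn x C57BL/6 background, and cohorts were matched for age and sex, of which neither is given in the labels. The titles call the knockouts R+KO, where R+ is left unexplained. The Cre line, the control animals' alleles and the number of animals behind a sample are also not given, so the spread behind each p-value is that of these samples and may be technical in part. The islets contain other cells besides beta cells, and in such bulk samples fewer cells of a type and less RNA per cell cannot be told apart. Values are log2 expression from Affymetrix arrays after RMA, and a difference is knockout minus control on that scale.

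As background, endocrine cells of the pancreas arise from duct-like progenitors that carry SOX9 and receive Notch signals, which act through RBPJ to keep the repressor HES1 on. Where Notch signalling falls, HES1 declines and NEUROG3, the factor that commits a cell to the endocrine fate, is switched on for a short time before hormone genes are. POU5F1 (OCT4), NANOG and SOX2 hold embryonic stem cells in the pluripotent state. Neurog3, Pou5f1, Nanog and Mycl were among the genes reported in beta cells that had lost their identity in mice lacking FoxO1 in these cells, which is why they are read as markers of dedifferentiation.

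Start regions of 3 markers are shown because of these known links between the factors. The windows run from 250 bases before to 50 after an annotated start in RefSeq (GRCm38.p6), and capitals mark matches to the motifs searched on both strands. For Nanog and Pou5f1 the table holds a pair of windows each, of which 1 is shown.
Neurog3 (chr10:62132840-62133139, plus strand): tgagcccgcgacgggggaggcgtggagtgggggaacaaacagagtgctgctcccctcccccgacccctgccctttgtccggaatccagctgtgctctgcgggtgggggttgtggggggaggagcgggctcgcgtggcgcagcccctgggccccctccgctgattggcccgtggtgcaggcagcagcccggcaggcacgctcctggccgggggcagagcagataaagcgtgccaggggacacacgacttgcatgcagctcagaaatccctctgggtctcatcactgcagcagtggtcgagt
Pou5f1 (chr17:35505782-35506081, plus strand): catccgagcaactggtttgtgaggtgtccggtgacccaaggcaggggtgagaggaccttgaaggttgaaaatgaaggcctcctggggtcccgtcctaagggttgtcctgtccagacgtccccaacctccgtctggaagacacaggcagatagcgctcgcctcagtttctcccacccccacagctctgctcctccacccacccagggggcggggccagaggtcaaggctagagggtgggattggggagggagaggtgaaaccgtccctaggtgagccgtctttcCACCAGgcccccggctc
Nanog (chr6:122707315-122707614, plus strand): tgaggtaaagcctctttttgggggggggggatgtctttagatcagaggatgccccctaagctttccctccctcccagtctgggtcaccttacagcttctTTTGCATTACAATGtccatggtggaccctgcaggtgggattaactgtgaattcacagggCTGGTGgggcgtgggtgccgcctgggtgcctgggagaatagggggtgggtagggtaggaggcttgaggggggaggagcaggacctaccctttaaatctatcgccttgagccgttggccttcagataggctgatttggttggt
The FoxO motif searched was GTAAACA, which 3.65% of all 32851 start windows held, and it matched in none of the windows of the markers. In Nanog the longest run of capitals marks the octamer core TTTGCAT followed, after any 1 base, by the SOX core ACAATG, a joined element bound by OCT4 and SOX2 in embryonic stem cells. Of all windows 2 held it, and these were the overlapping pair of Nanog, which share the same site. The octamer core alone, which overlaps it, was held by 4.63% of windows. The other capitals, in Nanog and Pou5f1, mark the N-box CACNAG, a site type recognised by HES proteins that 42.5% of windows held. The Neurog3 window had no match to any of these motifs. A match of letters describes the window and does not show binding.

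None of the 8 markers passed the test for a difference between knockout and control islets. Pou5f1 came closest: it was higher in each knockout than in every control, but by a margin of 0.0028 between the nearest samples. Neurog3, Sox9, Mycl and Vim had positive differences of 0.17 to 0.18, and Hes1, Gpx2 and Nanog lay within 0.05 of 0. The test was limma's moderated linear model on all 7 samples, with Benjamini-Hochberg adjustment over the 14807 genes and a threshold of 0.05, past which 0.00675% of genes lay. That was the single gene Aldh1a3, a retinaldehyde dehydrogenase and marker of dedifferentiated beta cells, at 8.80 ± 0.13 (SD, n = 3) in the knockouts and 7.23 ± 0.17 (SD, n = 4) in the controls. At an unadjusted p under 0.05 lay 1 of the 8 markers, Pou5f1, where 13.7% of all genes did. Of the markers 7 of 8 had a positive difference, and so did 68.4% of all genes, and the median difference was 0.17 for the markers and 0.08 for all genes. That gap was not kept in every alternative: the medians of the markers and of all genes were 0.057 and 0.055 without knockout 6, 0.062 and 0.059 without control 4, 0.059 and 0.045 after quantile normalization, and 0.044 and 0.029 without controls 3 and 4.

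**Figure D1:**
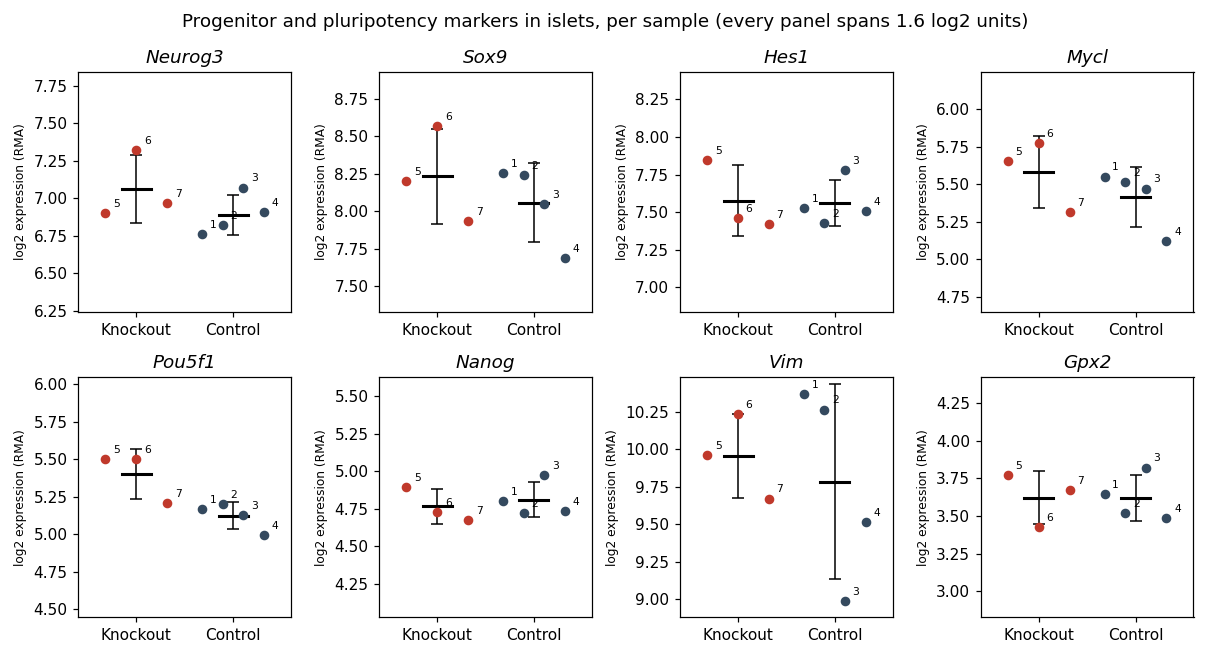
Log2 expression of the 8 measured markers in each knockout sample (red, numbered 5 to 7) and each control (dark, numbered 1 to 4), with the group mean (bar) and SD (whiskers). Every panel covers the same span of log2 units, and the groups overlap in every panel except that of Pou5f1, where knockout 7 at 5.21 lies just above control 2 at 5.20.

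Neurog3, the factor that commits progenitors to the endocrine fate, was at 6.90, 7.32 and 6.97 in knockouts 5, 6 and 7, against 6.77, 6.82, 7.07 and 6.91 in controls 1 to 4. Knockout 6 was the highest of all 7 samples, and the other knockouts lay within the range of the controls. The mean was 7.06 ± 0.22 (SD, n = 3) in the knockouts and 6.89 ± 0.13 (SD, n = 4) in the controls. The difference was 0.17 (SE 0.13), with a 95% interval of -0.13 to 0.48, which is 0.913 to 1.39 as a ratio, and an adjusted p of 0.567 in limma. Without knockout 6 it was 0.04, so this 1 sample carried most of the difference. Other alternatives raised it, to 0.25 without knockout 5 and to 0.30 with array weights. With array weights the unadjusted p was 0.0429 and the adjusted p 0.277 in limma.

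Sox9, the factor that marks duct-like progenitors and the ducts of the adult pancreas, was at 8.20, 8.57 and 7.94 in knockouts 5, 6 and 7, against 8.25, 8.24, 8.05 and 7.69 in controls 1 to 4. Again knockout 6 was the highest sample, control 4 was the lowest, and the groups overlapped. The difference was 0.18 (SE 0.19, limma, adjusted p = 0.704), with a 95% interval of -0.25 to 0.61. Without knockout 6 it was 0.01.

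Hes1, the Notch-induced repressor that holds Neurog3 down in progenitors, was at 7.85, 7.46 and 7.42 in knockouts 5, 6 and 7, against 7.52, 7.43, 7.78 and 7.51 in controls 1 to 4. Knockout 5 and control 3 stood above the other samples, 1 in each group. The difference was 0.016 (SE 0.14, limma, adjusted p = 0.970), with a 95% interval of -0.30 to 0.33, which is 0.811 to 1.26 as a ratio. The sign was not stable: without knockout 5 the difference was -0.12, and with median centring it was -0.0068.

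Among the pluripotency factors, Pou5f1 was at 5.50, 5.50 and 5.21 in knockouts 5, 6 and 7, against 5.17, 5.20, 5.13 and 4.99 in controls 1 to 4. Knockouts 5 and 6 stood above all controls, while knockout 7 was almost level with control 2. All of these values were dim, below the array medians of 7.11 to 7.29. Such a separation without overlap was seen for 10.9% of all genes, 8.99% with the knockouts above and 1.94% with them below. The mean was 5.40 ± 0.17 (SD, n = 3) in the knockouts and 5.12 ± 0.092 (SD, n = 4) in the controls, a difference of 0.28 (SE 0.11) with a 95% interval of 0.023 to 0.53. That is a ratio of 1.21, with an interval of 1.02 to 1.45. The unadjusted p was 0.0362 and the adjusted p over all genes 0.362 in limma. The difference was positive in all 15 alternative settings run, from 0.22 to 0.38, and its unadjusted p was under 0.05 in 8 of them. As the groups did not overlap, leaving out samples could not turn the sign. With 1 probe set, several of the other settings returned the same difference of 0.28 and changed only its test. The alternatives are therefore not independent evidence. Several pseudogenes of Pou5f1, some of them transcribed, are annotated in RefSeq, and whether the probes of this set also match them was not tested.

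Nanog, the second pluripotency factor, was at 4.90, 4.73 and 4.68 in knockouts 5, 6 and 7, against 4.80, 4.72, 4.98 and 4.73 in controls 1 to 4. It did not follow Pou5f1: control 3 was the highest sample and knockout 7 the lowest. The Nanog values also lay below the array medians of 7.11 to 7.29. The difference was -0.043 (SE 0.11, limma, adjusted p = 0.892), with a 95% interval of -0.29 to 0.20, which is 0.820 to 1.15 as a ratio. Nanog, too, has annotated pseudogenes.

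Mycl, which encodes L-MYC, a member of the MYC family of growth regulators, was at 5.65, 5.78 and 5.31 in knockouts 5, 6 and 7, against 5.55, 5.51, 5.47 and 5.12 in controls 1 to 4. Knockouts 5 and 6 were above all controls, but knockout 7 was below controls 1, 2 and 3. The difference was 0.17 (SE 0.15, limma, adjusted p = 0.641), with a 95% interval of -0.18 to 0.51. It was 0.30 without knockout 7 and 0.07 without control 4, so it moved by over 1.5 times with single samples.

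Vim, the intermediate filament vimentin of mesenchymal cells, was at 9.96, 10.23 and 9.67 in knockouts 5, 6 and 7, against 10.37, 10.27, 8.99 and 9.52 in controls 1 to 4. It had the widest range of the 8 markers, 1.38, and that whole range lay within the controls, with controls 1 and 2 above all knockouts and controls 3 and 4 below them. The difference of 0.17 (SE 0.33, limma, adjusted p = 0.856) had a 95% interval of -0.59 to 0.93. Without controls 3 and 4, an alternative chosen with the data seen, it turned to -0.36 (SE 0.17, adjusted p = 0.951), and without control 3 alone it was -0.09.

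Gpx2, the gastrointestinal glutathione peroxidase, was at 3.77, 3.43 and 3.67 in knockouts 5, 6 and 7, against 3.64, 3.52, 3.82 and 3.48 in controls 1 to 4. All of these values lay near the lower end of the array's scale, which ran from 2.50 to 14.3 over all probe sets. The difference was 0.0051 (SE 0.13, limma, adjusted p = 0.990), with a 95% interval of -0.28 to 0.29. RMA gives no detection call, and 6 of the 8 markers, all but Sox9 and Vim, had a mean below the median gene.

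**Figure D2:**
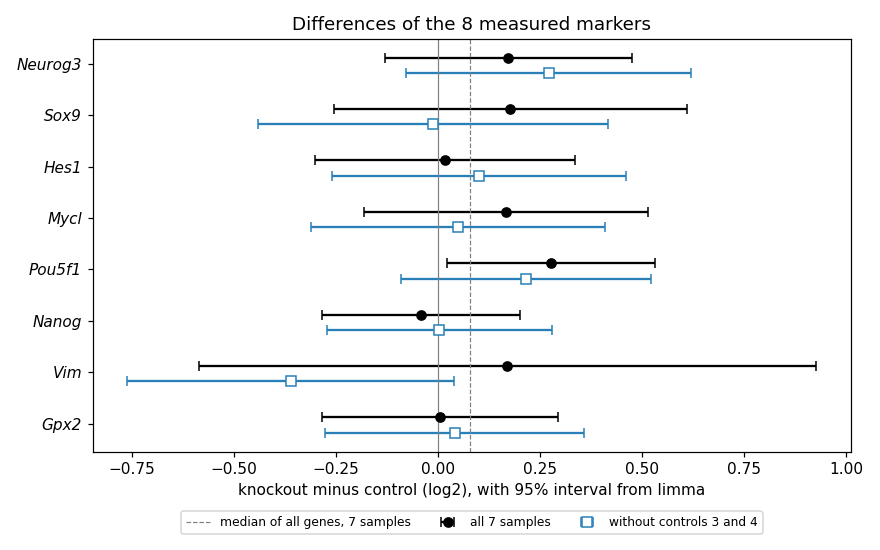
Knockout minus control difference (log2, x axis) of each marker with its 95% interval from limma, over all 7 samples (black circles) and without controls 3 and 4 (open blue squares). Over all samples the interval of Pou5f1, 0.023 to 0.53, lies above 0 before adjustment, and without controls 3 and 4 all 8 intervals include 0, with Vim at -0.36.

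The samples were not alike within a group. On the first principal component of all genes, which held 64.7% of the variance, controls 3 and 4 lay at 43.2 and 30.3. Knockouts 5 and 6 lay at -29.0 and -25.8. Knockout 7, at -3.40, lay nearer to controls 1 and 2, at -8.37 and -7.01, than to the other knockouts. Over all genes, samples correlated at 0.967 to 0.995 and no 2 were identical. Knockout 7 correlated with control 1 at 0.995, and with knockouts 5 and 6 at 0.989 and 0.990. Among the knockouts, knockout 6 was the highest in 5 of the 8 markers, namely Neurog3, Sox9, Pou5f1, Mycl and Vim, and knockout 7 was the lowest in 6. Over all genes knockout 6 was the highest knockout for 37.1% and knockout 7 the lowest for 53.6%. Among the controls, control 4 was the lowest in 4 markers, Sox9, Pou5f1, Mycl and Gpx2, and over all genes for 28.3%.

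Controls 3 and 4, which stood apart together over all genes, were the lowest pair of controls for Vim, Sox9, Pou5f1 and Mycl and the highest pair for Neurog3. For Hes1, Nanog and Gpx2 they were split, control 3 being the highest control of each. Without both, Neurog3 differed by 0.27 (SE 0.15), Pou5f1 by 0.22 (SE 0.13), Hes1 by 0.10 (SE 0.15), Mycl by 0.05 (SE 0.15) and Sox9 by -0.011 (SE 0.18), and none of the 8 markers passed the test (limma, adjusted p of 0.951 to 0.998). Across the 7 samples Sox9 and Mycl followed each other with a Pearson correlation of 0.959, Nanog and Hes1 with 0.926, and Pou5f1 and Nanog with 0.079. These describe 7 arrays that share their normalization, 2 of which stood apart.

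**Figure D3:**
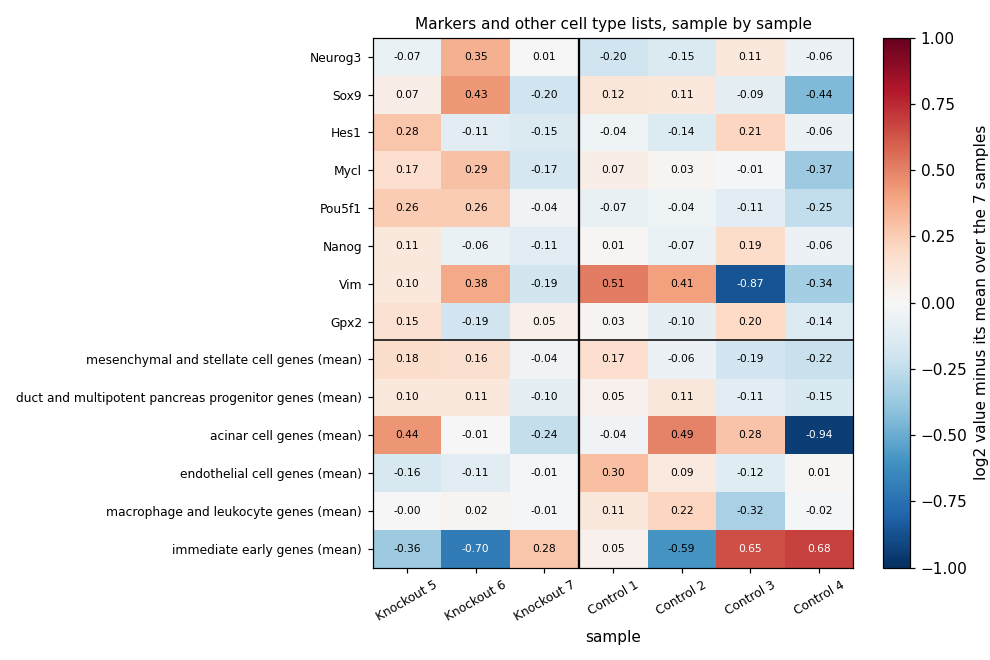
Log2 value of each marker (upper rows) and mean of each list of other cell type or immediate early genes (lower rows), as the deviation from its own mean over the 7 samples. Knockouts 5 to 7 are left of the line and controls 1 to 4 right of it. Vim is lowest in control 3 and Neurog3 is highest in knockout 6. Sox9 and Mycl are lowest in control 4, which also has the lowest mean of acinar, duct and mesenchymal genes.

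Genes that act with the markers were counted in lists. None of the lists below held a gene past the adjusted threshold except where stated. Unadjusted, 11.6% of all genes were higher and 2.14% lower in knockout islets at p under 0.05, and the lists are read against that. Controls 3 and 4, which stood apart, bear on most of them: of the 68 named genes other than the markers, 31 had a difference over 1.5 times smaller without these controls, 15 one of the other sign, 2 one over 1.5 times larger and 20 one within 1.5 times. The list values without them, a count above 0 or a median, are therefore given for each list, for acinar genes in the last section.

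A list drawn up for transcription factors of the Neurog3 endocrine lineage had positive differences for 6 of 16 measured genes, with a median of -0.04. Without controls 3 and 4 it had 6, with a median of -0.011. At an unadjusted p under 0.05, 1 gene was up and 1 down. Myt1, a zinc finger factor of endocrine differentiation, differed by -0.53 (SE 0.21, limma, adjusted p = 0.362). It was at 8.69 ± 0.31 (SD, n = 3) in the knockouts and 9.22 ± 0.35 (SD, n = 4) in the controls. The gene up was Bhlha15, with a difference of 0.41 (SE 0.17). It encodes MIST1, a factor of acinar and other secretory cells, so it does not stand for the endocrine lineage alone. Isl1, a factor of all islet endocrine cells, differed by -0.29 (SE 0.16). The direct NEUROG3 targets Neurod1, Insm1 and Pax4 differed by 0.006 (SE 0.12), -0.09 (SE 0.11) and -0.03 (SE 0.09). The sign of Neurod1 turned after quantile normalization, median centring and array weights, at -0.18, -0.017 and -0.09. Leaving out controls 3 and 4, Myt1 differed by -0.24 (SE 0.19), Bhlha15 by 0.13 (SE 0.11) and Isl1 by -0.05 (SE 0.12).

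Of 24 measured genes of the Notch pathway, 14 had positive differences, with a median of 0.06, against 8 and -0.034 without controls 3 and 4, and 1 was up and 0 were down at an unadjusted p under 0.05. That gene was Hes6, a HES family member that opposes HES1, at 9.15 ± 0.038 (SD, n = 3) in the knockouts and 8.79 ± 0.20 (SD, n = 4) in the controls, without overlap. It differed by 0.35 (SE 0.12, limma, adjusted p = 0.362), and by 0.34 (SE 0.15) without controls 3 and 4. The receptor Notch3 differed by -0.27 (SE 0.13) and Lfng, a glycosyltransferase that modifies Notch receptors, by 0.24 (SE 0.12), or by -0.15 (SE 0.14) and 0.15 (SE 0.12) without controls 3 and 4. Rbpj, the DNA-binding partner of activated Notch, differed by -0.13 (SE 0.39). It spread widely, with an SD of 0.93 among knockouts and 0.34 among controls. Its sign turned with array weights, at 0.18.

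The pluripotency network outside the markers had positive differences for 13 of 22 measured genes and a median of 0.03, against 7 and -0.030 without controls 3 and 4, with 0 genes at an unadjusted p under 0.05. Lefty1, an inhibitor of Nodal signalling, differed by 0.48 (SE 0.21), and the Krüppel-like factors Klf2 and Klf4 by -0.51 (SE 0.26) and -0.18 (SE 0.10). With controls 3 and 4 left out, Lefty1 differed by 0.21 (SE 0.15) and Klf2 by -0.13 (SE 0.21). Sox2, the partner of POU5F1 on the joined element in the Nanog window, was at 4.76 ± 0.092 (SD, n = 3) in the knockouts and 4.83 ± 0.15 (SD, n = 4) in the controls. It differed by -0.07 (SE 0.11, limma, adjusted p = 0.809), and by 0.0044 with array weights.

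In the MYC network 5 of 9 measured genes had positive differences, with a median of 0.03, against 6 and 0.014 without controls 3 and 4. Mlx, which pairs with ChREBP and MondoA, was the 1 gene at an unadjusted p under 0.05. It differed by 0.56 (SE 0.21, limma, adjusted p = 0.362), without overlap, and by 0.22 (SE 0.13) without controls 3 and 4. Max, the common partner of the MYC proteins, differed by 0.35 (SE 0.21), but by 0.0004 without controls 3 and 4, and Myc differed by 0.26 (SE 0.18), or 0.09 (SE 0.14) without them. Mycn differed by -0.05 (SE 0.12), and by 0.04 with array weights.

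The ETS factor FEV drives serotonin genes in neurons. Although Fev itself is not analysed here, a wider list of serotonin genes was measured, and whether each is a target of FEV was not tested. Of 14 genes 11 had positive differences, with a median of 0.05, against 9 and 0.080 without controls 3 and 4, and 3 were up and 0 down at an unadjusted p under 0.05. The vesicular monoamine transporter Slc18a1 was at 8.86 ± 0.20 (SD, n = 3) in the knockouts and 7.95 ± 0.66 (SD, n = 4) in the controls, without overlap, and differed by 0.91 (SE 0.33, limma, adjusted p = 0.362). The monoamine oxidases Maob and Maoa differed by 0.57 (SE 0.22) and 0.59 (SE 0.24). Without controls 3 and 4 these 3 differences were 0.34 (SE 0.14), 0.20 (SE 0.12) and 0.29 (SE 0.19). Tph1 and Tph2, the rate-limiting enzymes of serotonin synthesis, differed by 0.014 (SE 0.12) and 0.04 (SE 0.12). The sign of Tph1 turned with median centring, at -0.0087, and that of Tph2 with array weights, at -0.06.

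Genes of ducts and multipotent pancreas progenitors, the setting of Sox9, were above 0 for 8 of 14 measured members, with a median difference of 0.03, against 4 and -0.037 without controls 3 and 4, and 0 were at an unadjusted p under 0.05. The duct keratin Krt19 differed by 0.29 (SE 0.16, limma, adjusted p = 0.428). The adhesion protein Epcam differed by 0.46 (SE 0.33) and the Hippo coactivator Yap1 by -0.11 (SE 0.09). Epcam differed by -0.12 (SE 0.15) without controls 3 and 4. The mean of the list was 7.80, 7.80 and 7.60 in knockouts 5, 6 and 7, against 7.74, 7.81, 7.58 and 7.54 in controls 1 to 4, so it was low in knockout 7 and in controls 3 and 4.

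Mesenchymal and stellate cell genes, which share their cells with Vim, were above 0 for 15 of 19 measured members, with a median difference of 0.11, with 1 up and 0 down at an unadjusted p under 0.05. The median was 0.031 without control 4 and -0.005 without controls 3 and 4, with 9 of 19 above 0, so the list's direction was not kept. Rgs5, a pericyte gene, differed by 0.71 (SE 0.22, limma, adjusted p = 0.362), without overlap, and by 0.40 (SE 0.18) without controls 3 and 4. Tagln, a smooth muscle protein, differed by 0.22 (SE 0.10) and the factor Snai2 by 0.29 (SE 0.14), whereas the collagens Col1a1 and Col1a2 differed by 0.03 (SE 0.15) and 0.08 (SE 0.14). Col1a1 turned sign after quantile normalization, at -0.012. The list's mean was 7.53, 7.51 and 7.32 in knockouts 5, 6 and 7, against 7.52, 7.30, 7.16 and 7.13 in controls 1 to 4. Like Vim it was lowest in controls 3 and 4, but it spanned far less, and control 2 lay below all knockouts. The mean of macrophage and leukocyte genes shared the split of Vim. It was 7.09, 7.19, 6.65 and 6.95 in controls 1 to 4, against 6.96 to 6.996 in the knockouts. The part of either list in the values of Vim was not tested.

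Of glutathione peroxidases other than Gpx2 and targets of the oxidative stress factor NRF2, 14 of 17 measured genes had positive differences, with a median of 0.21, and 4 were up and 0 down at an unadjusted p under 0.05. Without controls 3 and 4 that majority was lost, with 8 of 17 above 0 and a median of -0.011. Gpx1, the abundant cytosolic peroxidase, was at 10.65 ± 0.14 (SD, n = 3) in the knockouts and 10.30 ± 0.13 (SD, n = 4) in the controls, without overlap. It differed by 0.35 (SE 0.11), Gpx4, which reduces lipid peroxides, by 0.75 (SE 0.25), and Nqo1, a quinone reductase induced by NRF2, by 0.58 (SE 0.19). In limma all 3 had an adjusted p of 0.362. They differed, without controls 3 and 4, by 0.24 (SE 0.12), 0.58 (SE 0.28) and 0.57 (SE 0.17). Whether these genes differ from Gpx2 in their response was not tested.

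Other dedifferentiation genes held the 1 gene past the adjusted threshold, Aldh1a3, with a difference of 1.57 (SE 0.12, limma, adjusted p = 0.0164). Serpina7, thyroxine-binding globulin, differed by 2.73 (SE 0.75) and Lpl, lipoprotein lipase, by -0.34 (SE 0.09), both without overlap and with adjusted p of 0.362. Serpina7 differed by 1.66 (SE 0.58) and Lpl by -0.40 (SE 0.10) without controls 3 and 4. Of the 6 measured genes 5 had positive differences, against 3 without these controls. In the fit over all 7 samples the 95% intervals of all 8 markers end below 1, at 0.93 or less, and so below the difference of Aldh1a3. That of Vim ended at 1.24 without knockout 7 and at 1.22 in the unmoderated test. Aldh1a3 stands out among all genes, so its difference is a selected one. The call of Aldh1a3 was lost without control 2, control 4 or any knockout, and earlier results of these data had already named it.

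**Figure D4:**
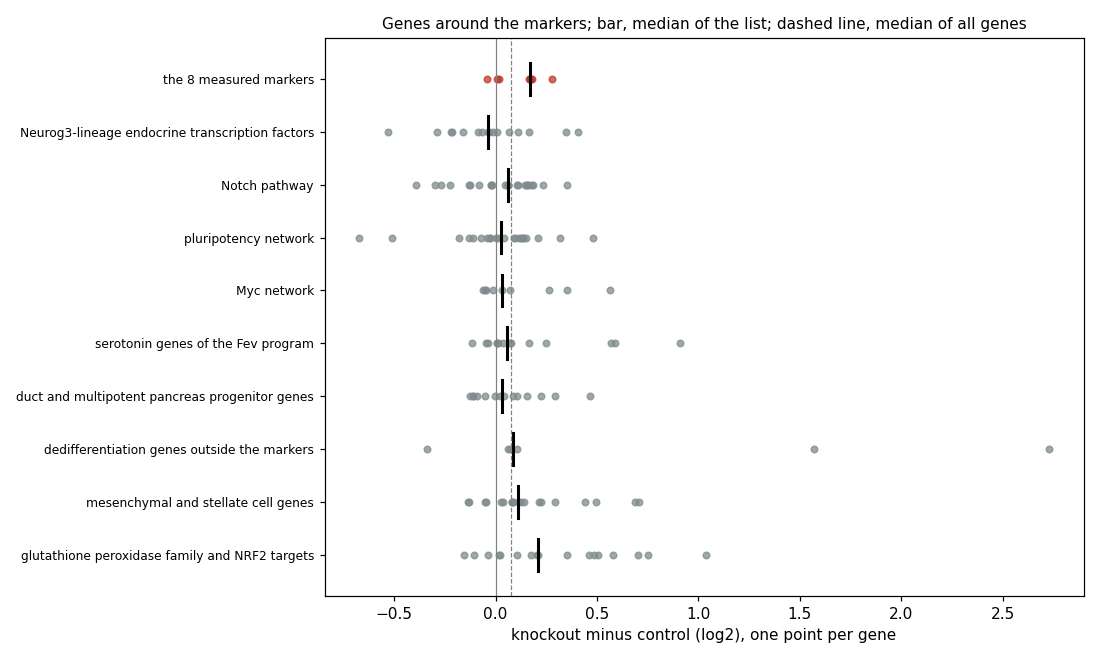
Knockout minus control difference (log2, x axis) of every measured gene in the lists around the markers, 1 point a gene, with the list median as a bar and the median of all genes, 0.08, as a dashed line. The 8 markers lie between -0.043 and 0.28, a narrower span than that of any other list shown, and the points at 1.57 and 2.73 are Aldh1a3 and Serpina7.

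The labels and the makeup of the samples were checked on the same fit. Foxo4, Foxo3 and Foxo1 differed by -0.47 (SE 0.16), -0.16 (SE 0.11) and -0.26 (SE 0.17), Foxo3 and Foxo4 without overlap, and Foxo6, which was not deleted, by 0.07 (SE 0.15), none past the threshold (limma, adjusted p of 0.362 to 0.873). Foxo1 differed by -0.50 (SE 0.15) without controls 3 and 4, by -0.42 after quantile normalization and by -0.17 without knockout 5, Foxo3 by -0.29 after quantile normalization and -0.10 without control 4, and Foxo4 by -0.29 without knockout 7. Which exons were deleted is not stated in the labels, and each gene had 1 probe set, which limits this check. The mean of 12 beta cell genes was 11.80 to 11.94 in knockouts and 11.67 to 11.90 in controls, led in p by G6pc2, Slc30a8 and Glp1r with differences of 0.39 (SE 0.17), -0.24 (SE 0.11) and 0.35 (SE 0.16), or 0.14 (SE 0.11), -0.11 (SE 0.11) and 0.10 (SE 0.11) without controls 3 and 4. That of 9 other endocrine genes was 10.67 to 10.93 in knockouts and 10.60 to 10.88 in controls. The median difference was 0.05 for the beta cell list and 0.08 for the other endocrine list. Without controls 3 and 4 these were -0.010 and -0.012. The mean of 8 acinar genes from the digestive tissue around islets was 8.71 to 9.39 in knockouts and 8.01 to 9.44 in controls. It was lowest in control 4, in which Sox9, Mycl and Pou5f1 were also lowest. That low was not particular to acinar genes. The means of the duct, mesenchymal, beta cell and other endocrine lists were also lowest in control 4, at 7.54, 7.13, 11.67 and 10.60. Of 10 endothelial genes 8 had negative differences, Flt1 and Kdr with -0.45 (SE 0.14) and -0.45 (SE 0.17) at an unadjusted p under 0.05, and the means were 8.85 to 8.99 in knockouts and 8.89 to 9.31 in controls. The median difference of this list was -0.19, and it was -0.32 with 1 of 10 above 0 without controls 3 and 4. Flt1 and Kdr then differed by -0.43 (SE 0.18) and -0.34 (SE 0.20). The mean of 11 macrophage and leukocyte genes was 6.96 to 6.996 in knockouts and 6.65 to 7.19 in controls. Immediate early genes, which respond to handling, lay below 0 for all 15 measured members, with a mean of 9.78 to 10.76 in knockouts and 9.90 to 11.17 in controls, highest in controls 3 and 4. Their median difference was -0.45, but 0.014 with 8 of 15 above 0 without these controls, and -0.17 without knockout 6. The part of these cell types and of handling in the markers' values was not tested.

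For the 3 markers with the widest range, the genes most like them over the 7 samples were named by Pearson correlation across all genes. They were Syn2, Slc1a4 and Ctnnb1 for Vim (0.989, 0.987 and 0.986), Tmem125, Spata20 and Lyzl6 for Sox9 (0.993, 0.987 and 0.987), and Zic5, Tiam2 and Col5a2 for Mycl (0.993, 0.992 and 0.988). Among 14807 genes and only 7 samples such values are reached by selection, and none of these 9 genes passed the test between the groups (limma, adjusted p of 0.561 to 0.908). The genes most like Vim shared its split of the controls, and without controls 3 and 4 Syn2, Slc1a4 and Ctnnb1 differed by -0.26 (SE 0.13), -0.21 (SE 0.16) and -0.11 (SE 0.11), against 0.09, 0.33 and 0.13 over all samples.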

How the data were processed

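The authors deposited log2 expression values, 1 per probe set and array. The submitters' processing notes name RMA and Affymetrix Expression Console, and the values show the log2 scale. RMA corrects background, brings arrays to a common distribution and combines the probes of a set, so dim sets keep a value. The deposited values were not fully level between arrays, whose medians ran from 7.11 to 7.29. Median centring and quantile normalization were run as alternatives. Version, settings and genome build: not given in the sources used here. Precision is limited by the number of arrays.

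Of 23238 probe sets, 14939 carried 1 symbol, 989 several and 7310 none, giving 14807 genes by the highest-mean probe set. Of those with 1 symbol, 14884 matched RefSeq (GRCm38.p6) by Entrez ID. Groups came from sample titles. The comparison of knockout with control used limma 3.58.1 and R 4.3.3 (all 7 samples, no covariates, no filter, two-sided, Benjamini-Hochberg over all genes), and the scripts were tested on simulated data. Start windows were found for 6 of the 8 measured markers, all but Sox9 and Hes1.

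The markers, the gene lists and the rule for named genes were chosen with earlier results of these data known. The rule took all markers, the FoxO genes, the 3 genes of each list with the smallest p, a few fixed genes whatever their test and the 3 genes most like each of the 3 widest-ranging markers. Lists are described by counts and medians, with no test of a list. Alternatives were quantile normalization, median centring, leaving out genes dimmer than the median gene, averaging the probe sets of a gene, a trended robust prior, an unmoderated test, array weights, testing every probe set, leaving out each sample and, added with the data seen, leaving out controls 3 and 4.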

Additional observations from a re-analysis of the deposited data

Results flagged for a closer look

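Of 93 genes and list means examined in the 4 controls, 2 had a sample set apart from the other 3 by more than Dixon's 95% limit, which chance gives for about 1 in 20. Both are genes most like Mycl over the samples. Tiam2 was at 4.24 and Col5a2 at 5.67 in the lowest control. None of the 8 markers was set apart in this way.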

How the results depend on the processing

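None of the 8 markers passed the adjusted threshold under any alternative. Their adjusted p ran from 0.211 for Pou5f1 with array weights up to 0.999, over 15 or 16 alternatives a marker. Neurog3, Pou5f1 and Mycl kept a positive sign in all 15 alternatives run for each, with ranges of 0.04 to 0.30, 0.22 to 0.38 and 0.05 to 0.30. For Pou5f1, whose groups did not overlap, leaving out samples could not turn the sign. The number of markers with a positive difference was 2 of the 2 left once genes dimmer than the median gene were removed, and otherwise 5 to 7 of 8. Markers at an unadjusted p under 0.05 numbered 2 with array weights, Pou5f1 and Neurog3. They numbered 0 after that removal, with median centring and without controls 3 and 4, and 0 to 1 with single samples left out.

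The number of genes past the adjusted threshold was 0 with all probe sets, with an unmoderated test and without controls 3 and 4, 2 with array weights, and 0 to 1 with single samples left out; among the listed genes it was 0 in the same 3 settings and 0 to 1 with single samples left out. Genes at an unadjusted p under 0.05 numbered 1104 with the unmoderated test, 700 without controls 3 and 4, and 569 to 3122 with single samples left out. Aldh1a3 had an adjusted p of 0.0849 with all probe sets and 0.528 with the unmoderated test (difference 1.57 in both), 0.156 without controls 3 and 4 (1.49), and differences of 1.50 to 1.64 with single samples left out.

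Signs turned as follows. With array weights the differences were 0.0050 for Nanog, -0.036 for Vim, -0.0071 for Gpx2, -0.086 for Neurod1, 0.18 for Rbpj, 0.0044 for Sox2, 0.043 for Mycn, -0.062 for Tph2 and -0.061 for Syn2. With median centring they were -0.0068 for Hes1, -0.018 for Gpx2, -0.017 for Neurod1 and -0.0087 for Tph1. After quantile normalization they were -0.027 for Hes1, -0.18 for Neurod1, -0.012 for Col1a1, -0.047 for Syn2 and -0.047 for Ctnnb1. Without controls 3 and 4 they were -0.011 for Sox9, 0.0035 for Nanog, -0.36 for Vim, -0.059 for Foxo6, -0.12 for Epcam, -0.089 for Cpb1, -0.094 for Cel, 0.057 for Ier2, -0.14 for Neurod1, -0.029 for Tph1, -0.095 for Tph2, -0.13 for Col1a1, -0.045 for Col1a2, -0.26 for Syn2, -0.21 for Slc1a4, -0.11 for Ctnnb1, -0.0048 for Tmem125 and -0.025 for Lyzl6. With single samples left out, signs turned within -0.11 to 0.013 for Nanog, -0.12 to 0.094 for Hes1, -0.094 to 0.36 for Vim, -0.069 to 0.10 for Gpx2, -0.040 to 0.15 for Foxo6, -0.097 to 0.47 for Cpb1, -0.16 to 0.31 for Cel, -0.049 to 0.070 for Neurod1, -0.44 to 0.40 for Rbpj, -0.11 to 0.00018 for Sox2, -0.16 to 0.077 for Mycn, -0.058 to 0.11 for Tph1, -0.024 to 0.12 for Tph2, -0.085 to 0.12 for Col1a1, -0.11 to 0.20 for Syn2, -0.0048 to 0.21 for Ctnnb1, -0.0013 to 0.12 for Spata20 and -0.0065 to 0.064 for Lyzl6. The cause was not tested. No paired analysis was made. The controls were littermates, but the labels do not say which samples shared a litter, and the sample numbers are not shared between the groups. The part of litter in these differences was not tested. With 7 arrays, differences inside the printed intervals could not be resolved.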

Other observations

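Among the lowest p values of the lists not described in full, the acinar genes Prss2, Cpb1 and Cel differed by 0.32 (SE 0.37), 0.24 (SE 0.39) and 0.16 (SE 0.35). The endocrine genes Ttr, Hhex and Ppy differed by 0.22 (SE 0.12), -0.28 (SE 0.17) and 0.16 (SE 0.11). Plvap, an endothelial gene, differed by -0.33 (SE 0.15). The leukocyte genes Fcer1g, Cd68 and C1qa differed by 0.66 (SE 0.26), -0.19 (SE 0.11) and -0.17 (SE 0.13). The immediate early genes Fos, Ier2 and Egr1 differed by -1.07 (SE 0.60), -0.95 (SE 0.57) and -0.55 (SE 0.34). All acinar genes as a list had a median difference of 0.12, but -0.12 without controls 3 and 4 and -0.17 without control 4. Fcer1g differed by 0.24, Fos by -0.23, Egr1 by -0.21 and Hhex by -0.014 without controls 3 and 4. In limma none of these 13 genes was past the adjusted threshold.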
